A study of Mus musculus with 6 samples.

Results

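The VEGF and angiopoietin ligands and receptors are the 10 genes Vegfa, Vegfb, Vegfc, Angpt1, Angpt2, Kdr, Flt1, Flt4, Tek and Tie1, taken by gene name from the 23361 genes of the authors' deposited table; all 10 were present and all 10 had been tested there. RNA had been sequenced from 3 AUF1-null and 3 WT samples of primary satellite cells, taken from hindlimb muscle at 4 months of age by sorting on the surface proteoglycan Sdc4. Per the labels the mice of both genotypes came from a C57BL/6 strain with 129 background, and AUF1, encoded by Hnrnpd, is a protein that binds AU-rich stretches of messenger RNA. The comparison asks which transcripts differ between the genotypes. The table holds 1 pooled value per gene for each of its conditions q2 and q1 on the FPKM scale (fragments scaled by transcript length and by library size), so no replicate spread can be given beside any value. The sources used here do not say which condition is AUF1-null, and Hnrnpd itself, at 5.59 FPKM in q2 and 7.50 in q1 of the authors' deposited table (log2 fold change -0.42, Cuffdiff q = 0.999), did not pass the authors' test. Each direction below compares q2 with q1 and names no genotype. How the null allele was made, and whether each sample is a mouse of its own, is not stated in the labels, so the authors' p-values may reflect technical spread alone.

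VEGF ligands are secreted proteins that drive the growth and permeability of vessels by binding receptor tyrosine kinases on endothelial cells, and VEGF-C does so above all on lymphatic endothelium. Angiopoietins act on the receptor Tek, also called Tie2: Angpt1, made by cells around the vessel, activates it and steadies the vessel, while Angpt2, stored and released by endothelial cells, often opposes it. In skeletal muscle, satellite cells lie close to capillaries and exchange such signals with endothelial cells.

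None of the 10 genes passed the authors' Cuffdiff test at a q below 0.05, a threshold that 0.612% of the 14858 tested genes passed. At an unadjusted p below 0.05, which 5.99% of tested genes met, 1 of the 10 stood below the threshold, Vegfc (p = 0.00360, q = 0.269 in the authors' deposited table). The other 9 had a q of 0.999 there. Of the 10 log2 fold changes, 3 lay above 0 and 7 below, with a median of -0.17 (0.076 when centred on endothelial identity genes), beside 48.7% above and 51.3% below and a median of -0.01 over the 14779 tested genes above 0 in both conditions. In 8 of the 10 genes the conditions differed by less than 1.5-fold, as they did in 74.2% of all these genes and in 87.8% of the 6437 with a mean of at least 10 FPKM. These are counts over genes and not over samples, and no test of the 10 as a set was made.

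**Figure D1:**
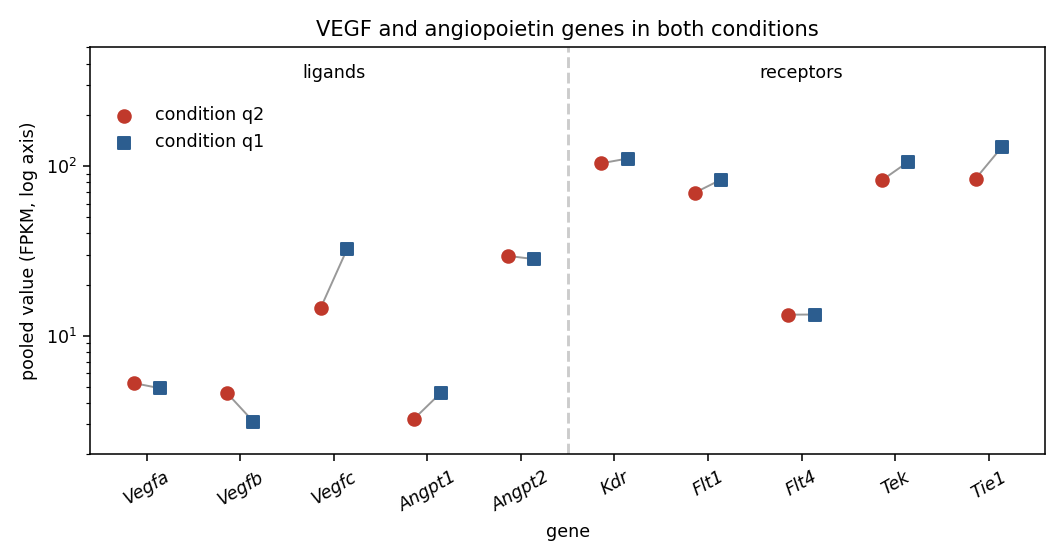
Pooled values of the 10 genes on the FPKM scale (log axis), ligands on the left and receptors on the right; each red circle is condition q2 and each blue square condition q1, 1 value each with no replicate error. Kdr, Tie1, Tek and Flt1 lie between 69.6 and 129 FPKM in both conditions, and Vegfc shows the widest gap on this log axis, at 14.6 in q2 and 32.3 in q1.

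Kdr, Tie1, Tek and Flt1 were above every ligand in both conditions, and the receptor Flt4 was below Vegfc and Angpt2. Kdr, the main signalling receptor for VEGF-A and also called VEGFR2, lies at chr5:75933270-75978428 (GRCm38, as are all positions here) and was listed at 103.7 FPKM in q2 and 110.6 in q1 of the authors' deposited table (log2 fold change -0.09, Cuffdiff q = 0.999). Its mean exceeded that of 93.6% of tested genes, and both conditions were nearly level. Flt1, or VEGFR1, binds VEGF-A tightly and, partly as a secreted short form, holds it back from Kdr. It lies at chr5:147562196-147725988 and was at 69.6 FPKM in q2 and 83.2 in q1 of the authors' deposited table (log2 fold change -0.26, Cuffdiff q = 0.999). Kdr thus stood 1.49 times as high as Flt1 in q2 and 1.33 times as high in q1. Flt4, the VEGF-C receptor of lymphatic vessels, at chr11:49609679-49652739, was the lowest receptor, at 13.3 FPKM in both q2 and q1 of the authors' deposited table (log2 fold change -0.003, Cuffdiff q = 0.999). Kdr and Flt1 share chromosome 5 with Hnrnpd, at distances of 24.0 and 47.6 Mb.

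Both Tie receptors lie on chromosome 4 and were lower in q2 than in q1 without passing the test. Tie1, an orphan receptor that pairs with Tek and tunes its signal, lies at chr4:118471191-118489849 and was at 84.0 FPKM in q2 and 128.9 in q1 of the authors' deposited table (log2 fold change -0.62, Cuffdiff p = 0.101, q = 0.999). That 1.53-fold gap was the widest among the receptors. Of the 1327 genes with a mean within 2-fold of that of Tie1, 4.37% had a log2 fold change at or below its value. Tek, at chr4:94739300-94874939, was at 82.4 FPKM in q2 and 105.8 in q1 of the authors' deposited table (log2 fold change -0.36, Cuffdiff q = 0.999). Tek and Tie1 were about level with each other in q2, with a ratio of 0.981, and Tek was somewhat the lower in q1, with a ratio of 0.820. All 5 receptors had log2 fold changes below 0, with a median of -0.26, although centring on all tested genes put Flt4 at 0.011, and centring on endothelial identity genes put Flt4 at 0.25 and Kdr at 0.16. The receptors summed to 353 FPKM in q2 and 442 in q1. With no replicate spread, the order of Kdr, Tie1, Tek and Flt1 by level is a description and was not tested.

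The stretches upstream of the receptor genes with the highest means, Kdr and Tie1, are shown with that of Vegfc, the member with the smallest p, because ETS factors bind the core GGAA and are known to drive endothelial receptor genes. Each run holds the 250 bases before the RefSeq start (GRCm38.p6), read 5′ to 3′ on the gene's strand, with GGAA and its reverse complement TTCC in capitals. They lie at chr5:75978456-75978705 (Kdr, minus strand), chr4:118489850-118490099 (Tie1, minus strand) and chr8:54077282-54077531 (Vegfc, plus strand).

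Kdr: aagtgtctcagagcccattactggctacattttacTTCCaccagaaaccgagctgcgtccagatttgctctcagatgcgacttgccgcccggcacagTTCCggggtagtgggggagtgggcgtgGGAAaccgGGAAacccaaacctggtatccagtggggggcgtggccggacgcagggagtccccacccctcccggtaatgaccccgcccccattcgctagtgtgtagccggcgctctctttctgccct

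Tie1: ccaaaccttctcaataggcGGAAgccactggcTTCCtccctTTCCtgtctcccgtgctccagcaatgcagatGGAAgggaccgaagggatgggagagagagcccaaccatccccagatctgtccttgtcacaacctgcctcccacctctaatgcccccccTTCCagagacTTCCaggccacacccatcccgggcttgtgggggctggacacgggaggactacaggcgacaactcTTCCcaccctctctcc

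Vegfc: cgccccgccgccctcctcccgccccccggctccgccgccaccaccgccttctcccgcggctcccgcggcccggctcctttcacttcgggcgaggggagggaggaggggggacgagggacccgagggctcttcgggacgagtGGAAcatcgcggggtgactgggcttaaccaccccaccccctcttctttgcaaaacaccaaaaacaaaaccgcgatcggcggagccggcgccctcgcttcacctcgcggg

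Tie1 held 7 such cores, Kdr 4 and Vegfc 1, both strands counted. Over the 250 upstream bases of 10783 tested genes in the RefSeq table, 93.2% held at least 1 and the median was 3, so a match alone is common, and 19.6% held 5 or more. The remaining members with an entry held 2 (Tek and Flt4), 4 (Flt1), 1 (Vegfb) and 6 (the first listed start of Vegfa). The core bound by hypoxia-inducible factors, ACGTG or GCGTG on either strand, occurs in 53.9% of these promoters. Kdr and Vegfb held 2 matches each and Flt1 held 1. The first listed start of Vegfa, a gene known for its hypoxia response, held none in this window. The window of its second listed start, at chr17:46025164-46025413, held 2. That second window lies inside the Vegfa gene, downstream of the first start, so its matches may fall in transcribed sequence. The GC box GGGCGG, found in 56.1%, occurred 2 times upstream of Kdr and of Vegfc and in no copy upstream of Tie1 and Tek. Matches of different motifs may overlap. These are matches of letters and not measured binding. Promoters of 8 of the 10 members were in the table; Angpt1 and Angpt2 had none.

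Vegfa and Vegfb were far below Flt1, which binds the proteins of both, whereas Vegfc was above its receptor Flt4 in both conditions. Vegfc, at chr8:54077532-54186454, encodes the ligand of Flt4 that guides lymphatic growth. It was listed at 14.6 FPKM in q2 and 32.3 in q1 of the authors' deposited table, 2.21-fold lower in q2 (log2 fold change -1.14, Cuffdiff p = 0.00360, q = 0.269). This was the largest fold difference among the 10 genes (in FPKM, Tie1 and Tek differed by more) and ranked 197 among all tested genes by p, but it did not pass the adjusted test. Among the 3809 genes with a mean within 2-fold of that of Vegfc, 0.814% had a log2 fold change at or below its value. In that range of levels, 2 genes above 0 in both conditions were called lower, and the smallest fold among them was 4.28. Adjusting the authors' p again over genes of at least 1 FPKM on the higher side gave Vegfc a q of 0.258.

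Vegfa, the central angiogenic ligand, lies at chr17:46016993-46032377 and was at 5.26 FPKM in q2 and 4.90 in q1 of the authors' deposited table (log2 fold change 0.10, Cuffdiff q = 0.999). Vegfb, a ligand of Flt1 linked to fatty acid uptake by endothelium, lies at chr19:6982472-6987651 and was at 4.57 FPKM in q2 and 3.11 in q1 of the authors' deposited table (log2 fold change 0.55, Cuffdiff q = 0.999). Both were low: their means exceeded those of 40.0% and 33.9% of tested genes, where the median over tested genes was 7.70 FPKM. Kdr stood 19.7 times as high as Vegfa in q2 and 22.6 times as high in q1.

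Among the 5 VEGF family ligands of the table, which add Pgf (placental growth factor, a ligand of Flt1) and Figf (the gene of VEGF-D, a ligand of Flt4), the leading ligand was Pgf in q2 and Vegfc in q1. Pgf was at 17.0 FPKM in q2 and 13.9 in q1, and Figf at 2.22 in q2 and 3.93 in q1 of the authors' deposited table (Cuffdiff q = 0.999 for both). Vegfc made up 33.5% of the summed ligand FPKM in q2 and 55.5% in q1, while Pgf made up 39.0% in q2 and 23.9% in q1. The sum was 43.7 FPKM in q2 and 58.1 in q1, whereas without Vegfc it was the higher in q2, at 29.1 in q2 and 25.8 in q1. These shares rest on pooled values and were not tested.

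**Figure D2:**
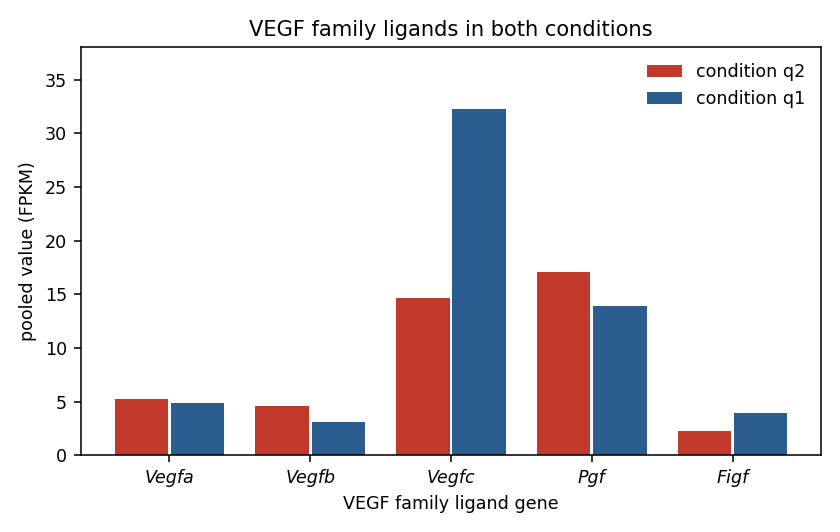
Pooled values of the VEGF family ligand genes on the FPKM scale; red bars on the left are condition q2 and blue bars on the right condition q1, with no replicate error. Vegfc is at 14.6 FPKM in q2 and 32.3 in q1, whereas Pgf, at 17.0 in q2 and 13.9 in q1, is the highest ligand in q2.

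The angiopoietins differed in level more than between conditions. Angpt2 was at 29.5 FPKM in q2 and 28.3 in q1 of the authors' deposited table (log2 fold change 0.06, Cuffdiff q = 0.999). Angpt1, at chr15:42424725-42676795, was at 3.25 FPKM in q2 and 4.58 in q1 of the authors' deposited table (log2 fold change -0.50, Cuffdiff q = 0.999). Angpt2 thus exceeded Angpt1 9.09 times in q2 and 6.17 times in q1, and the difference between these ratios was not tested. Tek, their receptor, stood 2.79 times as high as Angpt2 in q2 and 3.74 times as high in q1. Angpt2, annotated at chr8:18690263-18741562 in GENCODE vM21, lies wholly within Mcph1 on the opposite strand, and the table gives Angpt2 the position of Mcph1, chr8:18595173-18803188. The 3690 exonic bases of Angpt2 share none with exons of Mcph1 there, and Mcph1 was at 1.31 FPKM in q2 and 1.57 in q1 of the authors' deposited table. For Angpt1, 737 of 5205 exonic bases overlap the antisense gene Gm17473, and since no source used here gives the strand setting, reads of the pair cannot be told apart there.

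**Figure D3:**
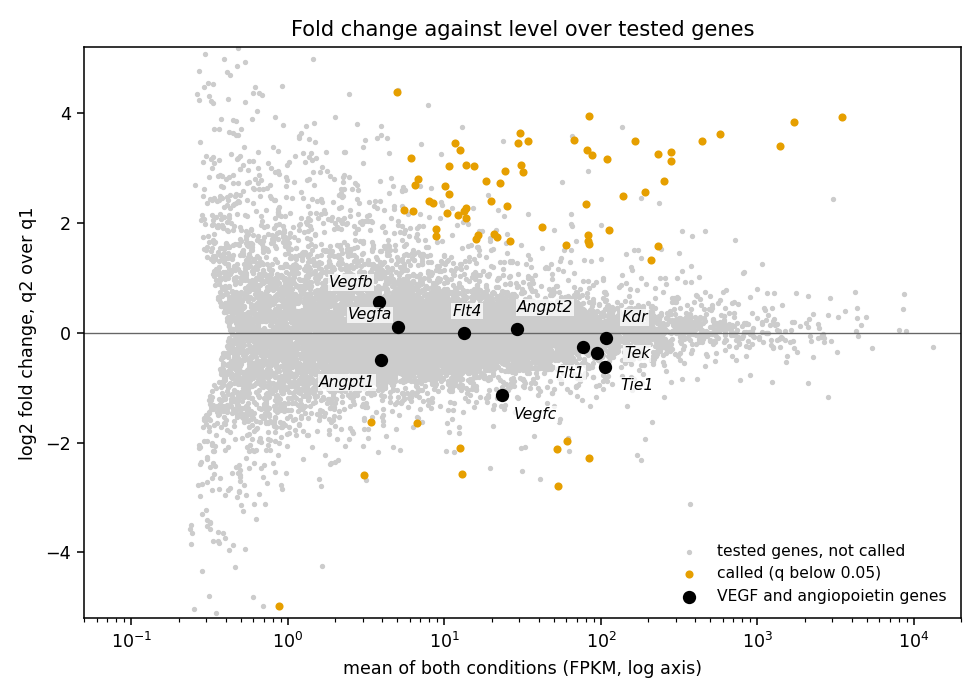
Log2 fold change of q2 over q1 against the mean of both conditions (FPKM, log axis) for 14764 of the 14779 tested genes above 0 in both conditions; 15 lie outside the axes. Grey points were not called, orange points had a q below 0.05, and the 10 named black points lie among the grey ones, with Vegfc lowest at -1.14.

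AU-rich stretches, the class of site that AUF1 binds, were counted in the longest 3′ UTR that GENCODE vM21 annotates for each gene. The pentamer ATTTA occurred in 9 of the 10 members, against 69.3% of 13070 tested genes, and the nonamer TTATTTATT in 2, against 7.98%, on the transcribed strand. The 2 were Vegfa and Flt1. Among genes with a 3′ UTR within 1.5 times the length of theirs, 9.74% for Vegfa and 17.1% for Flt1 held the nonamer. Vegfa held 9 pentamers in 1865 bases, more than 94.1% of the 3859 genes with a 3′ UTR within 1.5 times that length, and Vegfc held 4 in 1028 bases, more than 82.6% of 3520 such genes. Angpt1 held 7 in 2247 bases and Angpt2 held 6 in 1785, more than 80.4% and 81.0% of genes of like length, and Tek held 3 in 978, more than 72.3%. Flt1 held 8 in 3971 bases, more than 62.0%. Kdr held 2 in 1596 bases and Flt4 held 2 in 1656, more than 34.5% and 33.1%, Tie1 held 1 in 2240, more than 8.35%, and Vegfb held none in 417. The nonamer sites of Vegfa and Flt1 are shown because they are the nonamer matches found among the 10 genes, with the nonamer in capitals, at chr17:46017166-46017194 (minus strand) and chr5:147638581-147638609 (minus strand).

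Vegfa: ttgttatcatTTATTTATTggtgctactg

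Flt1: gttataatgcTTATTTATTtgaaacttgg

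The Flt1 site lies in the 3971-base 3′ UTR of a transcript that ends 73555 bases before the end of the gene, the kind of early ending that yields the soluble receptor. The 2616-base 3′ UTR of the transcript that runs to the end of the gene held 5 pentamers and no nonamer. Vegfa, with the most pentamers, had a log2 fold change of 0.10, and Vegfb, with none, had 0.55 in the authors' deposited table. Vegfc, with 4, had -1.14 there, and Tie1, with 1, had -0.62. A link between pentamers and fold change was not tested. A gene's value pools its transcripts, so the short and the long form of Flt1 were not told apart. A match of letters is not measured binding of AUF1.

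Beyond the 10 genes, 8 lists of the surrounding pathway, 102 genes tested in all without counting any gene more than once, held 1 called gene, Plvap, or 0.980%, beside 0.612% of all tested genes. Of these 102, 68 or 66.7% had log2 fold changes below 0, beside 51.3% of all tested genes above 0 in both conditions, and the median was -0.19. An unadjusted p below 0.05 was found for 13 of them or 12.7%, beside 5.99% of all tested genes. The lists were chosen with earlier results of these data known, so these shares are a description and were not tested. Plvap, which encodes a protein of endothelial diaphragms and responds to VEGF, fell to 28.8 FPKM in q2, against 139.6 in q1 of the authors' deposited table (log2 fold change -2.28, Cuffdiff q = 0.0108). It was the 1 called gene of 15 tested in the list of genes induced by VEGF in endothelium, with 6 members above 0, 9 below and a median of -0.12. There Dll4, the Notch ligand of sprouting tip cells, was at 70.9 FPKM in q2 and 57.6 in q1 of the authors' deposited table, and Aplnr, the receptor of apelin, at 33.2 in q2 and 67.5 in q1 (Cuffdiff q = 0.999 for Dll4 and 0.227 for Aplnr).

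Neuropilins, which hold VEGF ligands to their receptors, were present at unequal levels. Nrp1, the partner of Kdr, was at 223 FPKM in q2 and 263 in q1 of the authors' deposited table (Cuffdiff q = 0.999), 2.15 times the value of Kdr in q2 and 2.38 times in q1. Nrp2, the partner of Flt4 in binding VEGF-C, was at 9.92 FPKM in q2 and 20.1 in q1 of the authors' deposited table (log2 fold change -1.02, Cuffdiff p = 0.0116, q = 0.486). Vegfc and Nrp2 were thus both lower in q2 without passing the test, while Flt4 was at the same level. None of the 4 tested genes of this list, with Pgf and Figf, was called, and the median was -0.53.

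None of the 28 genes of VEGF receptor signalling was called (10 above 0, 18 below, median -0.18). Hspb1, a small heat shock protein phosphorylated downstream of Kdr, was at 104 FPKM in q2 and 322 in q1 of the authors' deposited table, with the smallest p of this list (log2 fold change -1.63, Cuffdiff p = 0.00155, q = 0.168). Nos3, the endothelial nitric oxide synthase, was at 22.2 FPKM in q2 and 34.5 in q1 of the authors' deposited table (Cuffdiff q = 0.999). Among 9 partners of the Tie receptors none was called, with a median of 0.01. Ptprb, the endothelial phosphatase that removes phosphate from Tek, was at 65.1 FPKM in q2 and 113 in q1, and Foxo1, the transcription factor that Tek signalling restrains and that drives Angpt2, at 13.0 in q2 and 22.7 in q1 of the authors' deposited table (Cuffdiff q = 0.901 for Ptprb and 0.725 for Foxo1).

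All 14 tested transcription factors of the ETS, SOX and related endothelial list had log2 fold changes below 0, with a median of -0.47 and none called. Fli1, an ETS factor, was at 192 FPKM in q2 and 208 in q1, and Klf2, which responds to blood flow, at 117 in q2 and 135 in q1 of the authors' deposited table (Cuffdiff q = 0.999 for both). Among the 14 transcription factors, 4 had an unadjusted Cuffdiff p below 0.05, beside 5.99% of all tested genes: Ets1, Sox17, Sox18 and Tal1. Of 14 hypoxia regulators and targets none was called and none had an unadjusted p below 0.05, with 6 above 0, 8 below and a median of -0.10. In that list Epas1, the hypoxia-inducible factor that predominates in endothelium, was at 242 FPKM in q2 and 289 in q1 of the authors' deposited table (Cuffdiff q = 0.999).

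**Figure D4:**
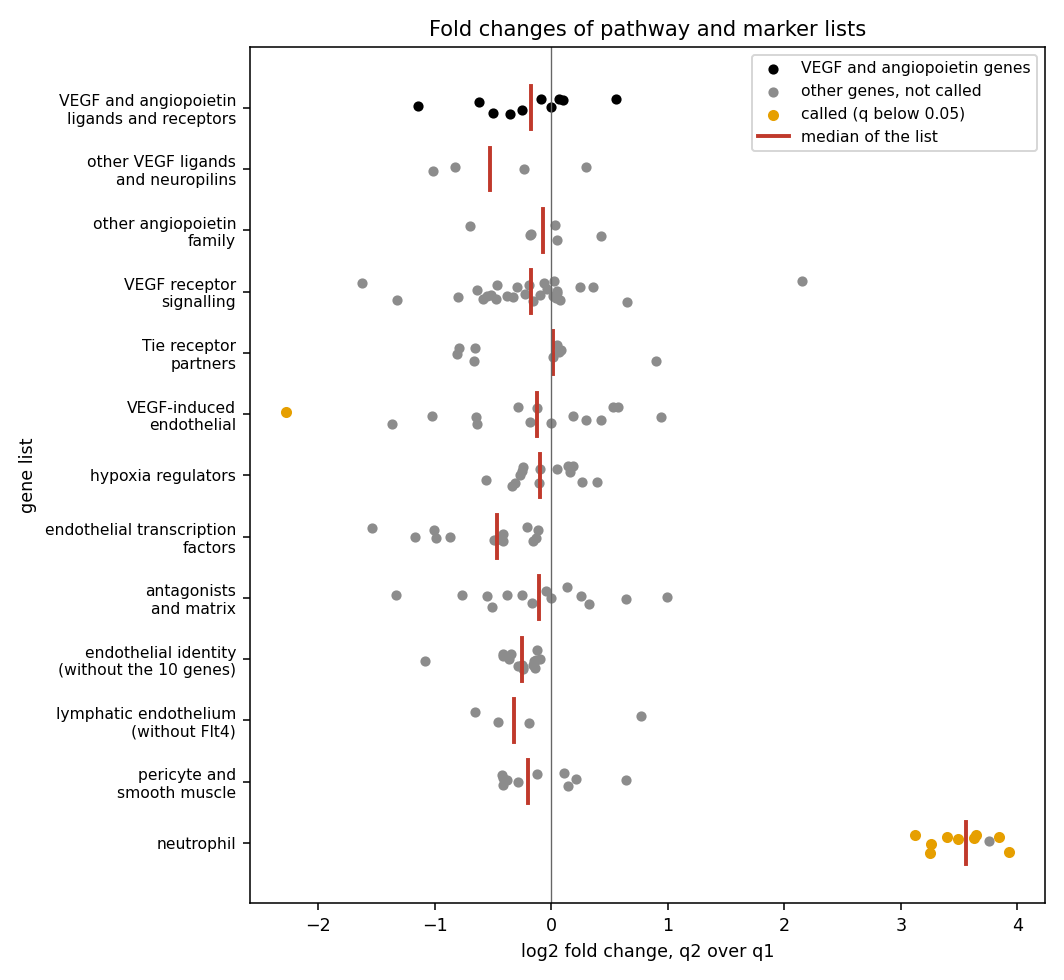
Log2 fold change of q2 over q1 for each tested gene of the pathway lists and part of the marker lists, 1 point per gene. The marker lists drawn are endothelial identity, lymphatic endothelium, pericyte and smooth muscle, and neutrophil. Satellite cell, fibroblast, macrophage and monocyte, platelet and myofibre markers are not drawn. The 10 genes are in black, called genes in orange, and the median of each list is a red line. The 10 genes have a median of -0.17, near the -0.25 of the endothelial identity list without them, while the neutrophil list lies at 3.56.

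Markers of the sorted cells show that endothelial transcripts were abundant in both conditions. All 20 endothelial identity genes, among them Kdr, Flt1, Tek and Tie1, had log2 fold changes below 0 and none was called. Without those receptors, the 16 others summed to 16818 FPKM in q2 and 19856 in q1, and none was at 0. Fabp4 alone, at 12031.5 FPKM in q2 and 14386 in q1, made up most of both sums. The median log2 fold change of these 16 genes was -0.25. Relative to that median, the log2 fold change was -0.37 for Tie1, -0.11 for Tek, -0.005 for Flt1, 0.16 for Kdr and -0.89 for Vegfc. Pooled samples cannot tell fewer endothelial cells from less RNA per cell, and the part of endothelial content in these values was not tested. Among lymphatic markers, Lyve1 was at 38.9 FPKM in q2 and 53.5 in q1 of the authors' deposited table, and Pdpn, a surface protein that is not limited to these cells, at 18.8 in q2 and 11.0 in q1 (Cuffdiff q = 0.999 for both). Prox1, the factor that specifies lymphatic endothelium, was at 1.16 FPKM in q2 and 1.33 in q1 of the authors' deposited table (Cuffdiff q = 0.999). Without Flt4, the 4 lymphatic markers, Pdpn above 0 and the other 3 below, summed to 69.3 FPKM in q2 and 82.3 in q1, with a median of -0.33 and none called. Lyve1 made up most of both sums, and which cells it came from was not tested.

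Of the 10 satellite cell markers none was called, with 5 above 0, 5 below and a median of -0.09. They summed to 435 FPKM in q2 and 383 in q1, but the sorting marker Sdc4 alone made this sum higher in q2. Sdc4 was at 270 FPKM in q2 and 173 in q1 of the authors' deposited table (Cuffdiff q = 0.999). Pax7, which defines satellite cells, was only at 0.854 FPKM in q2 and 1.16 in q1 there (Cuffdiff q = 0.999). The 10 pericyte and smooth muscle markers, cells that make Angpt1, summed to 4747 FPKM in q2 and 3683 in q1, with 4 above 0, 6 below, a median of -0.20 and none called. Rgs5 alone made the sum higher in q2: the other 9 summed to 1195 FPKM in q2 and 1403 in q1. The 8 fibroblast markers had a median of -0.19 with none called, and the 4 tested platelet markers a median of -0.66 with none called. Of these platelet markers 3 lay below 0, but the list summed to 333 FPKM in q2 and 289 in q1. Pf4, at 327 FPKM in q2 and 275 in q1 (Cuffdiff q = 0.999), made up most of both sums. All 10 neutrophil markers lay above 0, with a median of 3.56, and 9 of them were called. The list summed to 15473 FPKM in q2 and 1189 in q1, or 2.24% and 0.187% of all summed values. Of 9 macrophage and monocyte markers, 6 lay above 0, of which Tyrobp and Ccr2 were called, and the list median was 0.47. The 3 below 0 included Csf1r, at 49.7 FPKM in q2 and 83.8 in q1 of the authors' deposited table (Cuffdiff q = 0.999). All 5 myofibre markers lay above 0 with a median of 0.80 and none called. The part of these other cells in the values of the 10 genes was not tested.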

How the data were processed

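RNA sequencing of 3 AUF1-null and 3 WT samples was analysed from 1 table of the whole series with the column layout of Cuffdiff. TopHat2 2.0.9 and Cufflinks 2.2.1 were used, per the submitters' processing notes. No source used here gives the annotation, the library normalization, the depth or the strand setting. The authors deposited, for each gene, 1 value per condition on the scale that this layout gives as FPKM (the heading itself names no unit) after pooling the replicates. Per the file headers they also deposited the log2 fold change of q2 over q1, a test statistic (a score, not used here), a p-value and a q-value. The notes name mm9, but 99.5% of 21500 genes matched by symbol and chromosome overlapped their GENCODE vM21 (GRCm38) annotation, so positions are given in GRCm38, with 1 added to the start. The file name puts WT before KO, but the table does not state which condition is which, and no genotype was assigned.

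Genes of status OK with a deposited q below 0.05 count as called; 8499 genes were not tested by the authors and 4 had too many fragments. List medians, sums, shares and ratios were computed from the deposited values in Python 3.11.15 with pandas 2.3.3, and the adjustment code was tested on simulated data. The members and lists were chosen with earlier results of these data known. From each list the called genes or the 3 with the highest mean could be named. Figf, Dll4, Aplnr, Cxcr4, Nos3, Foxo1, Ets1, Sox17, Sox18, Tal1, Prox1, Pax7, Csf1r and Angpt4 were named after their values were seen. Alternatives covered the q threshold, low values, pseudocounts and centring. Sequences came from RefSeq promoters (GRCm38.p6) and GENCODE vM21 transcripts. With values per sample not analysed here, no SD, n or interval stands beside a value.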

Additional observations from a re-analysis of the deposited data

How the results depend on the processing

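None of the 10 genes was called at a deposited q below 0.10, after adjustment without genes below 1 FPKM on the higher side, or after adjustment without genes with a side at 0, where Vegfc had a q of 0.294; with no adjustment of p, 1 was called. The called pathway genes numbered 1 at a q below 0.10 and 13 with no adjustment. Pseudocounts of 0.1 and 1 turned no direction of the 10 genes, and a pseudocount of 1, the one tried on the 8 pathway lists, turned no list median. Centring on the endothelial identity list, whose median is -0.25, turned the median of the 10 genes to 0.076, Kdr to 0.16 and Flt4 to 0.25, and centring on all tested genes turned Flt4 to 0.011; the change follows from the subtracted median. No paired analysis was possible because the table holds 1 pooled value per condition, and leaving out single replicates was not run for the same reason. Depth per sample is unknown, so no counting interval can be given.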

Other observations

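Angiopoietin-like genes, secreted relatives of the angiopoietins that do not act through Tek in the same way, were more abundant than Angpt1. Angptl7 was at 232 FPKM in q2 and 261 in q1, and Angptl4, a lipase inhibitor induced by fasting and hypoxia, at 76.0 in q2 and 56.7 in q1 of the authors' deposited table (Cuffdiff q = 0.999 for both). Angpt4, the remaining Tek ligand, was at 0.905 FPKM in q2 and 1.47 in q1 of the authors' deposited table. None of the 6 tested genes of this list was called, with 3 above 0, 3 below and a median of -0.07.

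None of 14 antagonists and matrix partners of VEGF was called, with 5 above 0, 9 below and a median of -0.11. Thbs1, an inhibitor of angiogenesis, was at 126 FPKM in q2 and 80.8 in q1, and Spry2, a feedback inhibitor of receptor tyrosine kinases, at 154 in q2 and 141 in q1 of the authors' deposited table (Cuffdiff q = 0.999 for both).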
